A study of Mus musculus with 18 samples.

Results

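The genes described here are 41 nucleolar and ribosome assembly factors, taken by name and grouped by the step of ribosome synthesis in which they act. There were 16 small-subunit factors, 13 large-subunit factors, 8 proteins of small nucleolar ribonucleoproteins (snoRNPs) and 4 other nucleolar proteins. Of the 41, 40 were found in each of the 3 deposited tables, which hold 12861 genes (p53null, 10 h), 12838 genes (p53WT, 72 h) and 12679 genes (p53WT, 10 h). The large-subunit factor Noc2l was not analysed here. All 40 genes of the 10 h p53WT table exceeded the minimum level of every setting tried, so that no member was lost to a filter there.

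Ribosomes are built in the nucleolus, where RNA polymerase I (Pol I) makes the ribosomal RNA precursor. Small-subunit factors bind this precursor first and fold, cleave and export the small particle, and large-subunit factors do the same for the large particle. SnoRNPs carry guide RNAs and the enzymes that modify ribosomal RNA: box C/D particles methylate it and box H/ACA particles convert uridine to pseudouridine. Genes for these factors are commonly driven by growth signals and by MYC, and unassembled ribosomal proteins can bind MDM2 and stabilise p53.

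The cells were MLL/ENL Nras mouse acute myeloid leukemia (AML) of strain C57BL/6, either with wild-type p53 (p53WT) or without p53 (p53null), grown in syngeneic recipients and sorted from bone marrow as GFP-positive tumour cells. All groups carry the MLL/ENL fusion and Nras, and what drives these transgenes, the age of the mice and the number of leukemias behind a group are not given in the sources used here. The 6 groups of 3 samples were p53null AML with CX-5461, a Pol I inhibitor, or vehicle for 10 h, p53WT AML with CX-5461 or vehicle for 72 h, and p53WT AML with CX-5461 or vehicle for 10 h. Counts per library were available for the last pair of groups, and the other 2 comparisons rest on the authors' deposited edgeR results. The labels do not say that the samples of a group came from separate animals, so p-values measure the spread between these samples.

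The 6 libraries with counts held 21578685 to 37244725 counts with CX-5461 and 22090394 to 48118513 counts with vehicle. All 11 leukemia and progenitor markers were measured. Their summed level was 18710 to 18930 CPM (counts scaled to library size) with CX-5461 and 13900 to 17960 CPM with vehicle. Markers of red cells differed far more, at 472 to 685 CPM with CX-5461 and 5973, 19970 and 793 CPM in vehicle libraries 1, 2 and 3. The summed level of 12 neutrophil markers was 3045 to 4184 CPM with CX-5461 and 7306 to 19290 CPM with vehicle, and that of 10 monocyte and macrophage markers 677 to 741 CPM and 888 to 1266 CPM. Of 16 erythroid markers Gata1 was not in the table, and 4 of 6 T and NK cell markers (Cd3e, Cd3g, Il7r and Klrb1c) were not in it either. The 2 measured T and NK cell markers summed to 91.8 to 93.1 CPM with CX-5461 and 57.4 to 72.7 CPM with vehicle. Their median log2 fold change was -0.64 although the sum was higher with CX-5461, so the 2 markers did not change alike. CPM values are shares of the sequenced RNA. Fewer cells of a type and less RNA per cell cannot be told apart in them.

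In p53WT AML at 10 h, ribosome biogenesis factors of every group were higher with CX-5461 than with vehicle. By edgeR's quasi-likelihood test, with Benjamini-Hochberg adjusted p-values over 12679 genes and a threshold of 0.05, 9 of 16 small-subunit factors rose, as did 8 of 12 large-subunit factors, 5 of 8 snoRNP proteins and 3 of the 4 other nucleolar proteins, and 0 members fell (0 at an unadjusted p under 0.05 and 0 by DESeq2 or limma-voom). Over all genes, 3.78% were called higher and 4.32% lower. The median log2 fold change was 0.39 for small-subunit factors, 0.39 for large-subunit factors, 0.31 for snoRNP proteins and 0.42 for the other nucleolar proteins, against 0.00 over all genes. Every CX-5461 library lay above every vehicle library for 39 of the 40 members, and for 19.9% of all genes. The groups' ranges overlapped widely, from 0.12 to 0.63 for small-subunit, 0.13 to 0.58 for large-subunit and 0.20 to 0.46 for snoRNP members, and the difference between these groups was not tested.

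**Figure D1:**
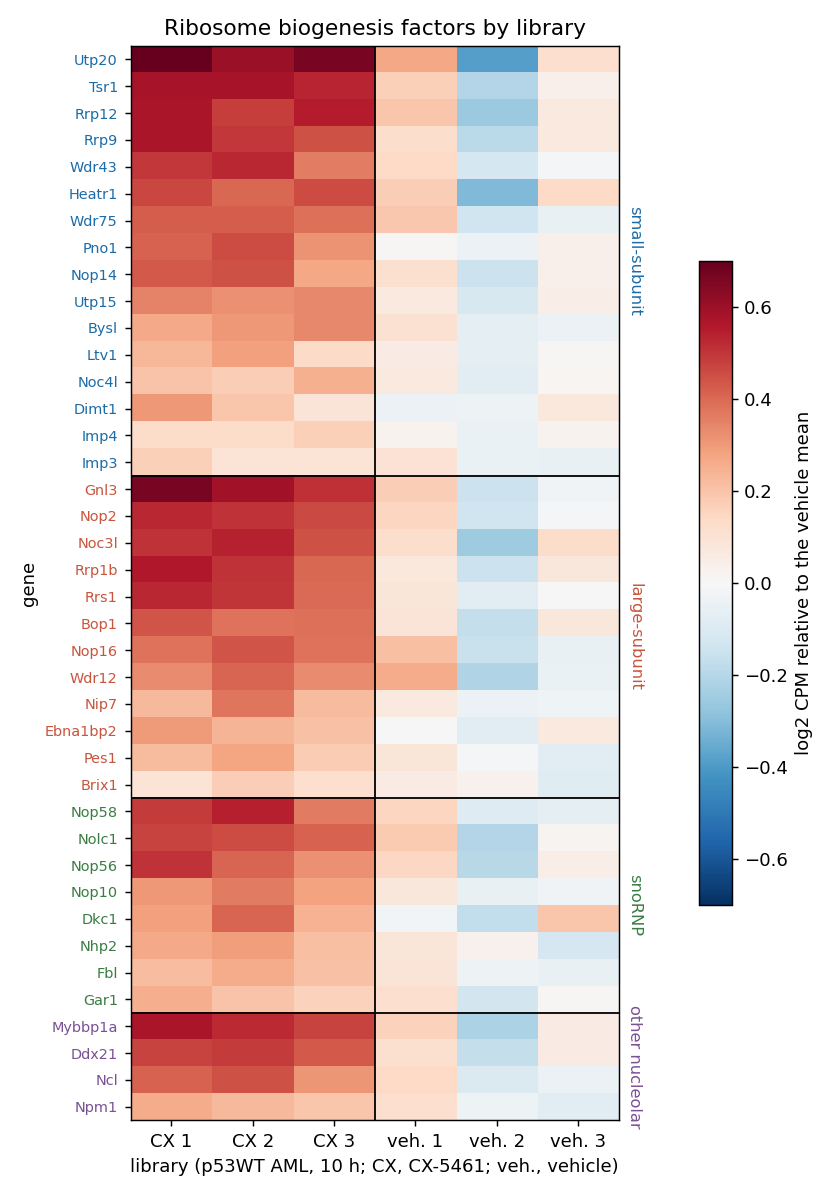
Heat map of log2 CPM, relative to the mean of the 3 vehicle libraries, for 40 ribosome biogenesis factors (rows, coloured and split by group) in the 3 CX-5461 and 3 vehicle libraries of p53WT AML at 10 h. The CX-5461 columns are redder than the vehicle columns in nearly every row, and vehicle library 2 held the lowest vehicle value for 33 of 40 members.

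The small-subunit factors with the smallest p act from the first cleavages to the last steps before export. Tsr1, a GTPase-like factor that stays on the late small-subunit precursor, had 68.2, 68.2 and 66.1 CPM in the CX-5461 libraries and 51.2, 39.6 and 46.9 CPM in the vehicle libraries. The CX-5461 values were nearly alike and all lay above the highest vehicle value. Its log2 fold change was 0.55 (SE 0.0925, adjusted p 0.0318). Rrp9, which binds the U3 snoRNA, had 54.3, 51.4 and 49.7 CPM with CX-5461 and 39.8, 32.1 and 38.3 CPM with vehicle. Its log2 fold change was 0.50 (SE 0.0890, adjusted p 0.0344). Wdr43, a subunit of the UTP-A complex that couples Pol I transcription to early processing, had 156, 159 and 142 CPM with CX-5461 and 122, 102 and 109 CPM with vehicle. The 2 groups did not overlap, with a log2 fold change of 0.46 (SE 0.0797, adjusted p 0.0338). Pno1, which guards the cleavage site at the end of the small-subunit RNA, had 44.8, 46.2 and 41.8 CPM with CX-5461 and 33.8, 32.7 and 34.5 CPM with vehicle, a log2 fold change of 0.39 (SE 0.0592, adjusted p 0.0267). Utp15, another UTP-A subunit, had 67.4, 66.2 and 67.0 CPM with CX-5461 and 55.6, 49.0 and 54.7 CPM with vehicle, a log2 fold change of 0.33 (SE 0.0605, adjusted p 0.0351). For both genes the lowest CX-5461 value exceeded the highest vehicle value.

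The small-subunit members were also read by known complexes, set down with the values known and limited to members. Differences between complexes were not tested, and 3.78% of all genes were called higher. Of the 4 UTP-A subunits among the members 3 rose (median 0.41), with Wdr75 at 0.40 and Heatr1 at 0.43 (adjusted p 0.0692). Of 5 late factors 4 rose (median 0.39), with Rrp12 at 0.52, Bysl at 0.30 and Ltv1 at 0.22 (adjusted p 0.0648). Imp3 and Imp4, partners in the complex that joins the U3 snoRNA to the precursor, were at 0.12 and 0.14 and did not pass the test (adjusted p 0.233 and 0.0916). Imp3 had 57.8, 55.0 and 55.2 CPM with CX-5461 and 55.2, 49.9 and 49.7 CPM with vehicle, and it was the member whose groups overlapped. Utp20, a very large scaffold protein of the small-subunit precursor, had 105, 98.1 and 102 CPM with CX-5461 and 77.8, 49.3 and 69.9 CPM with vehicle. Its log2 fold change of 0.63 exceeded that of every other member, but its vehicle libraries were spread widely (SE 0.153, adjusted p 0.0515). The authors' deposited table called Utp20 higher in the same libraries (FDR 0.00498). Dimt1, which methylates the small-subunit RNA, had 13.9, 12.9 and 12.0 CPM with CX-5461 and 11.0, 11.0 and 11.9 CPM with vehicle (0.20, SE 0.0915, adjusted p 0.185).

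Among large-subunit factors, Gnl3 (nucleostemin), a nucleolar GTPase, had 121, 115 and 109 CPM with CX-5461 and 86.0, 68.7 and 74.8 CPM with vehicle. Its log2 fold change of 0.58 (SE 0.0884, adjusted p 0.0273) was larger than that of any other called member. Nop2, which methylates the large-subunit RNA, had 135, 132 and 129 CPM with CX-5461 and 104, 84.5 and 92.5 CPM with vehicle, a log2 fold change of 0.49 (SE 0.0768, adjusted p 0.0281). For both genes the CX-5461 libraries were close together and the groups did not overlap. Rrp1b, a nucleolar factor of the early large particle, had 98.9, 95.2 and 88.6 CPM with CX-5461 and 70.5, 60.5 and 70.8 CPM with vehicle, a log2 fold change of 0.49 (SE 0.0774, adjusted p 0.0299). Rrs1, which in yeast helps place the smallest ribosomal RNA in the large particle, had 146, 143 and 133 CPM with CX-5461 and 107, 95.5 and 101 CPM with vehicle, with an adjusted p of 0.0186 that was lower than for any other member. Bop1, Pes1 and Wdr12 form the PeBoW complex of the large-subunit precursor, and only Bop1 of the 3 passed the test. In that test 3.78% of all genes were called higher. Bop1 had 164, 157 and 157 CPM with CX-5461 and 128, 107 and 127 CPM with vehicle (0.40, SE 0.0758, adjusted p 0.0364). Pes1 was at 0.22 (adjusted p 0.0549), and Wdr12 was at 0.34 with vehicle libraries of 116, 84.0 and 94.2 CPM (adjusted p 0.0953). Brix1 changed little, with 58.3, 61.5 and 59.3 CPM with CX-5461 and 56.8, 55.8 and 51.4 CPM with vehicle (0.13, SE 0.0567, adjusted p 0.180).

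**Figure D2:**
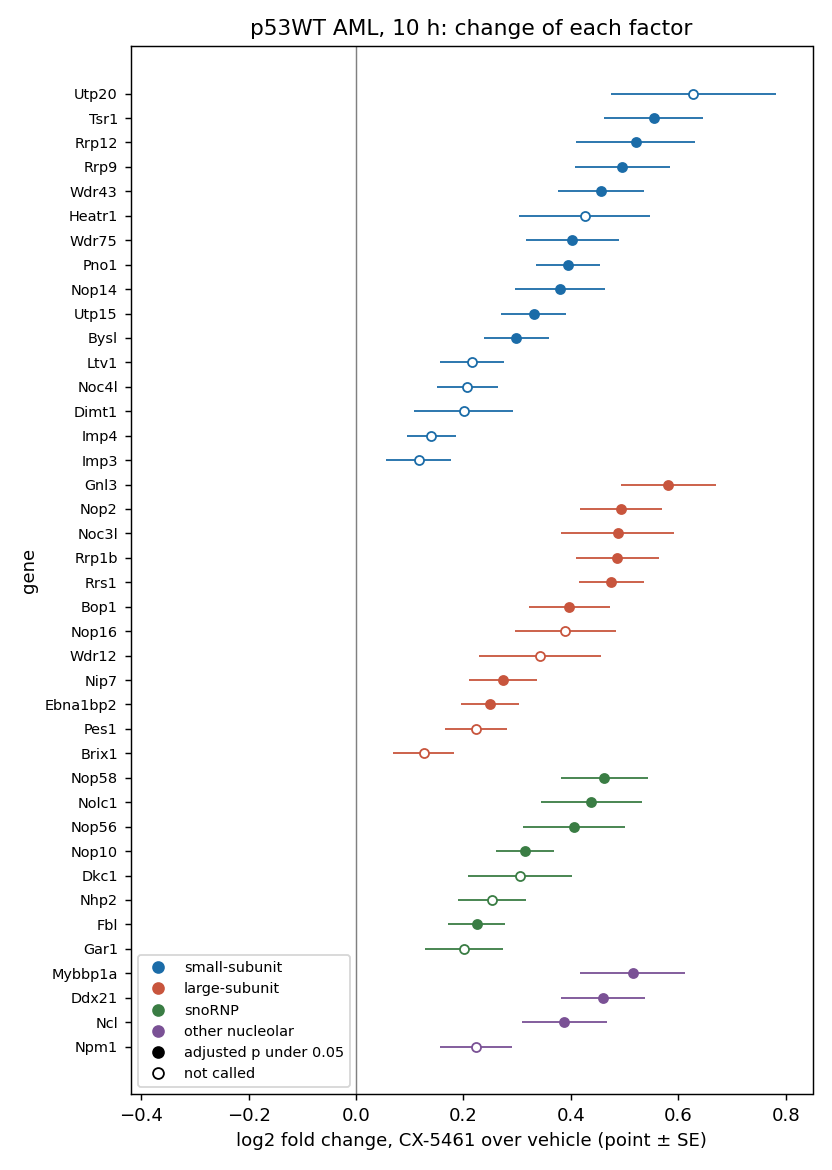
Log2 fold change of each ribosome biogenesis factor in p53WT AML at 10 h, CX-5461 over vehicle, with bars of 1 SE from 3 libraries per group; filled points passed an adjusted p of 0.05. All 40 points lie to the right of 0, from 0.12 for Imp3 to 0.63 for Utp20, and the members that were not called include both small changes and wide errors.

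Among the snoRNP members, the 3 core proteins of box C/D particles rose, as did 1 of the 4 core proteins of box H/ACA particles. Over all genes 3.78% were called higher. A further box C/D core protein, Snu13, is in the wider list and rose by 0.25 (adjusted p 0.0446). Nop58 had 229, 237 and 209 CPM with CX-5461 and 181, 153 and 156 CPM with vehicle (0.46, SE 0.0807, adjusted p 0.0338). Nop56, its partner in the box C/D particle, had 281, 262 and 247 CPM with CX-5461 and 219, 173 and 205 CPM with vehicle (0.41, SE 0.0947, adjusted p 0.0477). The methyltransferase Fbl (fibrillarin) rose by less, 0.22 (SE 0.0531, adjusted p 0.0492). In the box H/ACA particle the small protein Nop10 had 75.7, 79.0 and 74.6 CPM with CX-5461 and 64.7, 59.3 and 60.2 CPM with vehicle (0.31, SE 0.0545, adjusted p 0.0338). The pseudouridine synthase Dkc1 was at 0.31 with a wider error (SE 0.0973, adjusted p 0.0870), Nhp2 at 0.25 (adjusted p 0.0525) and Gar1 at 0.20 (SE 0.0721, adjusted p 0.113). Gar1 had 56.4, 54.2 and 52.9 CPM with CX-5461 and 51.3, 43.3 and 47.5 CPM with vehicle, so that its groups did not overlap although it missed the threshold. Nolc1, a snoRNP chaperone, had 261, 258 and 251 CPM with CX-5461 and 214, 163 and 191 CPM with vehicle (0.44, SE 0.0944, adjusted p 0.0427). The difference between the particle types was not tested. Their split by calls rests on the threshold, since Dkc1 and Nhp2 had larger log2 fold changes than Fbl. The authors' deposited table for the same libraries called 3 of the 8 snoRNP members higher. Fbl (FDR 0.299) and Nop10 (FDR 0.101) were not among them.

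Of the other nucleolar proteins, Mybbp1a, a regulator of ribosomal RNA synthesis and of p53, had 423, 409 and 395 CPM with CX-5461 and 318, 244 and 296 CPM with vehicle (0.51, SE 0.0973, adjusted p 0.0364). The RNA helicase Ddx21 had 414, 418 and 401 CPM with CX-5461 and 321, 265 and 310 CPM with vehicle (0.46, SE 0.0774, adjusted p 0.0319). Nucleolin, Ncl, which binds the ribosomal RNA precursor, had 1442, 1478 and 1344 CPM with CX-5461 and 1192, 1012 and 1055 CPM with vehicle (0.39, SE 0.0788, adjusted p 0.0398). Each of these 3 genes had its 3 CX-5461 values above its 3 vehicle values. Nucleophosmin, Npm1, had 1014, 991 and 967 CPM with CX-5461 and 918, 826 and 801 CPM with vehicle. It did not overlap between groups but did not pass the test (0.22, SE 0.0671, adjusted p 0.0757). Npm1 has processed pseudogenes that could share its reads.

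The called members lay close to the threshold, with edgeR adjusted p between 0.0186 and 0.0492 and log2 fold changes of 0.22 to 0.58, and the count moved with the fit. The authors' deposited table for the same libraries called 19 of 40 members higher and 0 lower, of which 18 were among the 25. Its background was 3.57% of genes higher and 6.83% lower, 10.4% in either direction. The 1 member called only by the authors was Utp20. The 7 called only by the quasi-likelihood test were Utp15, Bysl, Nop14, Ebna1bp2, Nip7, Nop10 and Fbl. DESeq2 and limma-voom called 35 and 21. Over all genes DESeq2 called 962 higher and 1352 lower and limma-voom 394 and 330, against 479 and 548 in the main fit. Without CX-5461 library 1, 2 or 3 the same edgeR test called 0 members (34, 33 and 36 higher at p under 0.05 before adjustment), while over all genes 24, 23 and 23 were then higher. Without vehicle library 3 it called 5 small-subunit and 3 snoRNP members, and 474 genes higher over all. All 40 log2 fold changes were positive in each of these fits, with medians of 0.37, 0.35 and 0.41 without CX-5461 library 1, 2 or 3 and 0.38 without vehicle library 3.

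Red cell markers fell in these libraries, with 9 of 15 lower and a median log2 fold change of -5.56, and neutrophil markers with 9 of 12 lower and a median of -2.10. Relative to the vehicle mean, the median log2 CPM of the 40 members was 0.41, 0.40 and 0.33 in CX-5461 libraries 1, 2 and 3 and 0.11, -0.12 and 0.01 in vehicle libraries 1, 2 and 3. The erythroid median was -4.59, -4.83 and -3.96 in the CX-5461 libraries and 0.41, 2.16 and -2.57 in the vehicle libraries. Against vehicle library 3 alone, which had the least erythroid RNA of the vehicle libraries, the median log2 difference of the members was 0.36, with 40 of 40 positive. It was 0.26 against vehicle library 1 and 0.54 against vehicle library 2, in values with no test that were chosen after seeing the data. With the mean erythroid level as a covariate, the median was 0.28 with 39 of 40 positive (the exception was Dkc1), edgeR called 0 members, and 13 were higher at p under 0.05 before adjustment. Over all 12679 genes that fit called 18 higher and 0 lower. The members' median SE was 0.1275 in it, against 0.0774 in the main fit. The erythroid median of every CX-5461 library lay below that of every vehicle library, so this fit can hardly separate erythroid level from treatment. The part of the erythroid and neutrophil RNA in the members' rise was not tested.

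**Figure D3:**
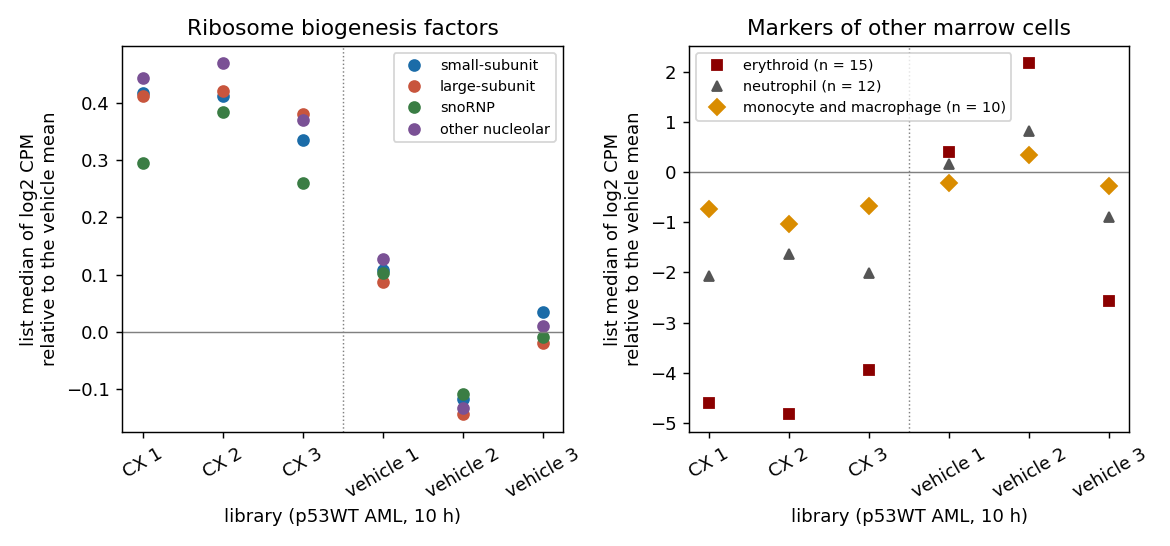
Median log2 CPM relative to the vehicle mean in each library of p53WT AML at 10 h, for the 4 groups of ribosome biogenesis factors (left) and for markers of 3 other marrow cell types (right; the vertical scales differ). The factors lie highest in the CX-5461 libraries and lowest in vehicle library 2, while the erythroid median is highest in vehicle library 2 at 2.16 and lower in vehicle library 3 at -2.57.

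The libraries do not mark strand, so reads of overlapping genes can be shared. In GENCODE M21 on GRCm38, a later build than the authors' mm9, 34.2% of the exon bases of Tsr1 overlap Srr on the opposite strand, 37.3% of those of Dimt1 overlap Kif2a and 9.37% of those of Bysl overlap Ccnd3. Srr had 6.93, 6.61 and 5.92 CPM with CX-5461 and 6.73, 6.30 and 6.67 CPM with vehicle (log2 fold change -0.02). Kif2a was at -0.20 (adjusted p 0.123) and Ccnd3 fell by 0.47 (adjusted p 0.0401). None of these 3 neighbours was higher with CX-5461, and for the other members an overlap covered at most 5.33% of their exon bases.

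The members' promoters were searched for 3 short motifs in the 250 bases before each RefSeq gene start (GRCm38.p6), where 35 of the 40 members matched the table by symbol. The MYC-type E-box CACGTG, which reads the same on both strands, was present for 2 members (5.71%), against 10.1% of 9083 other genes of the 10 h p53WT table and 6.86% of all genes with a promoter. The GC box GGGCGG, on either strand, was present for 62.9% of members and 63.4% of the other genes. The ETS core CCGGAA, on either strand, was present for 40.0% of members and 26.5% of the other genes. A gene was counted once for each motif, whether or not motifs overlapped. The stretches that hold the 2 E-boxes are given 5′ to 3′ on the plus strand, because they belong to a member that rose (Nop2, log2 fold change 0.49) and one that did not pass the test (Imp4, 0.14), with the E-box in capitals 60 and 121 bases before the gene start.
Nop2, chr6:125131763-125131882: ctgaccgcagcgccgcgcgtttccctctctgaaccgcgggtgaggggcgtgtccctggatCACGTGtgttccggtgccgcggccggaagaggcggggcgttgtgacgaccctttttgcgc
Imp4, chr1:34439648-34439767: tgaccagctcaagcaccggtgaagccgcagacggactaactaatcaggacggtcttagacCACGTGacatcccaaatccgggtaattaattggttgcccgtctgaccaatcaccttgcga

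In p53null AML at 10 h, ribosome biogenesis factors showed no call. The authors' deposited table called 0 of 40 members in either direction by its edgeR FDR, and 0 had an unadjusted p under 0.05. The background was low too, with 0.148% of all genes called higher and 0.0389% lower, 0.187% in either direction. The members' log2 fold changes lay between -0.13 and 0.11 with a median of -0.03, and 30 of 40 were negative, against a median of -0.00 over all genes. At the low end the authors' deposited table gave Ncl -0.13 (FDR 0.880), Utp20 -0.12, Ddx21 -0.12, Ltv1, a late small-subunit factor, -0.10 and Rrp12 -0.10. At the high end it gave Noc4l 0.11 (FDR 0.945), Ebna1bp2, a large-subunit factor, 0.08, Tsr1 0.06, Brix1 0.06 and Heatr1 0.03. All 8 snoRNP proteins were slightly negative there, from -0.08 to -0.02. The authors' deposited table holds no SE for these changes, and none was computed here.

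Side by side in the authors' deposited tables, the log2 fold change was smaller in p53null than in p53WT AML at 10 h for 40 of 40 members. For Gnl3 it was -0.05 in p53null and 0.58 in p53WT AML, for Rrp12 -0.10 and 0.52, for Mybbp1a -0.02 and 0.52, and for Nop58 -0.03 and 0.46. The medians were -0.05 in p53null and 0.39 in p53WT AML for small-subunit factors, -0.03 and 0.39 for large-subunit factors, and -0.03 and 0.31 for snoRNP proteins. The 2 comparisons were normalized separately and share no samples, and the difference between them was not tested, because counts for the p53null libraries were not used here. Marker levels of other cells also stood apart side by side. For p53null AML, the authors' deposited table gave a median log2 fold change of -0.10 over 8 erythroid, -0.04 over 12 neutrophil and 0.05 over 10 monocyte and macrophage markers, with 0 called in each list. By the counts of p53WT AML at 10 h these medians were -5.56 over 15, -2.10 over 12 and -0.85 over 10 markers. Over 11 leukemia and progenitor markers the median was -0.06 in p53null and 0.19 in p53WT AML, with 0 called in either. The part of these markers in the members' values was not tested.

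**Figure D4:**
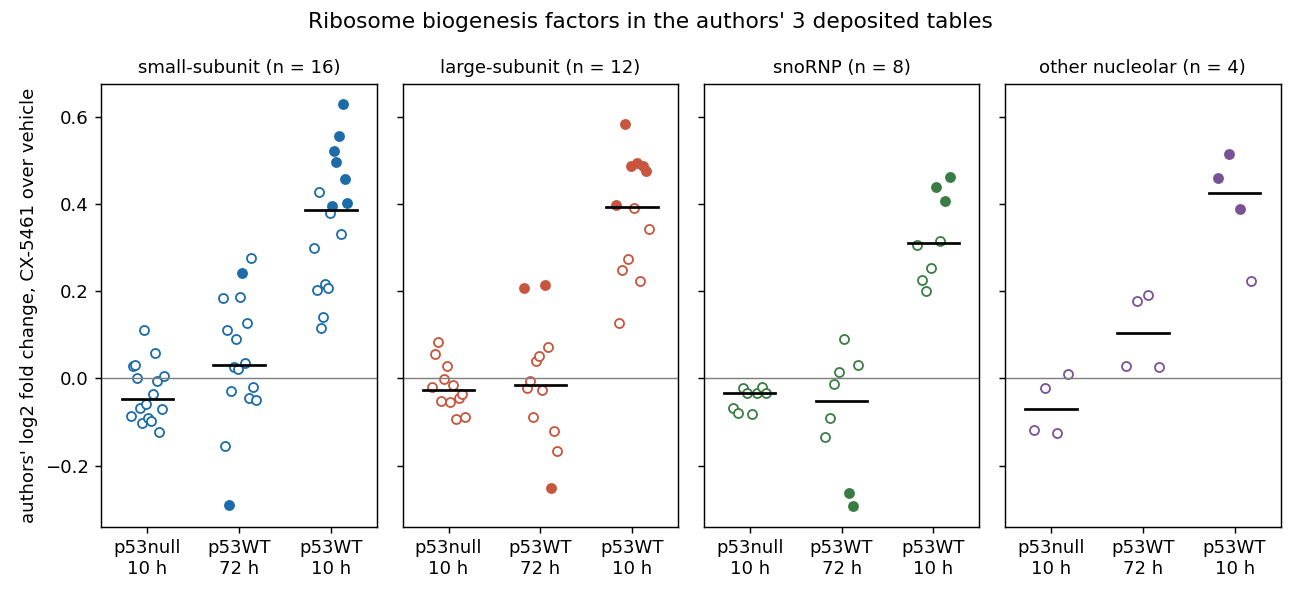
The authors' deposited log2 fold changes, CX-5461 over vehicle, of the ribosome biogenesis factors in 3 comparisons (p53null at 10 h, then p53WT at 72 h, then p53WT at 10 h), 1 panel per group; each point is a gene, filled where the authors' FDR was under 0.05, and black lines are medians. The members lie around 0 in p53null AML at 10 h and on both sides of 0 in p53WT AML at 72 h. In p53WT AML at 10 h all lie above 0.

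After 72 h of CX-5461 the factors of p53WT AML lay on both sides of 0. By the authors' deposited table, 3 of 40 members were higher and 4 lower, where 16.1% of all genes were called higher and 15.1% lower, so that the share of members called was below the 31.2% called in either direction. The median of the members was 0.02, and their range was -0.29 to 0.28. Rrp12, which acts in export of both particles, was at 0.24 (FDR 0.0393), Nop2 at 0.21 (FDR 0.0359) and Bop1 at 0.21 (FDR 0.0401), and these 3 were higher. Nop56 fell by 0.29 (FDR 0.00276), Imp3 by 0.29 (FDR 0.00255), Nop10 by 0.26 (FDR 0.00578) and Rrp1b by 0.25 (FDR 0.0252) in that table. Utp20 had the largest value, 0.28, without a call (FDR 0.0801), and Ncl was at 0.19 (FDR 0.111) and Wdr12 at -0.17 (FDR 0.101). At an FDR under 0.01 the 3 higher calls were lost and 3 of the 4 lower calls were kept, those of Nop56, Imp3 and Nop10. The share of all genes called at this stricter threshold is not given here.

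By group, the counts at 72 h were small, and 16.1% of all genes were called higher and 15.1% lower there. Of the 8 snoRNP proteins 2 fell, 1 from each particle type, and 0 rose (0 higher at an unadjusted p under 0.05 in the authors' edgeR fit), with a median of -0.05. Small-subunit factors had 1 higher and 1 lower of 16 and a median of 0.03, and large-subunit factors 2 higher and 1 lower of 12 and a median of -0.01. The 4 other nucleolar proteins were all slightly positive, from 0.03 to 0.19, with 0 calls and 2 higher at an unadjusted p under 0.05. The log2 fold change was smaller at 72 h than at 10 h in p53WT AML for 40 of 40 members. Of the 19 members that the authors' deposited table called higher at 10 h, 3 were called higher at 72 h and 2 lower. The shares of all genes at 72 h were 16.1% higher and 15.1% lower. Across the 40 members the values at 72 h and at 10 h had a Spearman rho of 0.36 and a Pearson r of 0.34, a description over genes that are not independent. The difference between the times was not tested. The 2 times share no samples, and their sample titles follow different patterns. The labels do not say whether the same leukemia was used, so time and leukemia cannot be told apart. Erythroid and neutrophil markers were higher with CX-5461 at 72 h in the authors' deposited table, 9 of 15 and 11 of 12 with medians of 1.13 and 1.12, opposite to 10 h. Of 11 leukemia and progenitor markers, 1 was higher and 6 lower there (median -0.22), where 31.2% of all genes were called in either direction. By the counts of p53WT AML at 10 h, 0 of the 11 were called and their median was 0.19. The part of these marker lists in the members' values was not tested.

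A list of 85 other ribosome assembly genes was mostly higher with CX-5461 at 10 h in p53WT AML. Of the 84 measured, 26 rose and 0 fell in edgeR's quasi-likelihood test, against 3.78% higher and 4.32% lower over all genes. The authors' deposited table for the same libraries called 13 higher and 0 lower, against 3.57% and 6.83% of all genes. In all 79 of the 84 were positive, against 50.8% of all genes, and the median log2 fold change was 0.27, against 0.39 for the members, a difference that was not tested. Mdn1, which encodes a large-particle ATPase, had the highest value, 0.75, and did not pass the quasi-likelihood test (SE 0.204, adjusted p 0.0621). The authors' deposited table called Mdn1 higher (FDR 0.00385). Before adjustment 1 gene was lower at p under 0.05, Nop53 at -0.17, which DESeq2 also called lower and limma-voom did not. The count of higher genes was 0 without any one of the CX-5461 libraries and 46 without vehicle library 1, where 817 genes were higher over all. Ftsj3, a large-subunit methyltransferase gene, had 172, 175 and 167 CPM with CX-5461 and 134, 111 and 125 CPM with vehicle, without overlap (0.47, SE 0.0725, adjusted p 0.0280). The large-subunit factor genes Nle1 (0.63, adjusted p 0.0313) and Mak16 (0.39, adjusted p 0.0312) and the small-subunit factor gene Tsr2 (0.41, adjusted p 0.0344) rose too. In p53null AML the authors' deposited table called 0 of the 84 (1 at an unadjusted p under 0.05, Rcl1 at -0.16 with an FDR of 0.785), with a median of -0.01. The next smallest p there belonged to Utp11 (0.13), Naf1 (-0.14) and Pwp2 (-0.14). The authors' deposited table for p53WT AML at 72 h had 5 higher and 8 lower of the 84, a share below the 31.2% of all genes called in either direction. In the authors' deposited table for 72 h, Utp4, the gene of a UTP-A subunit, was higher (0.33, FDR 0.000603), whereas Riok1, which encodes a kinase of the late small particle, fell by 0.32 (FDR 0.00276). Nop53, a large-subunit factor gene, fell by 0.32 (FDR 0.00216) and the helicase gene Ddx24 by 0.25 (FDR 0.00382) in the same authors' deposited table.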

How the data were processed

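The mm9 build and the tools Bowtie, CASAVA 1.8.2, edgeR and HTSeq are named in the submitters' processing notes; order, settings and annotation are not given in the sources used here. The authors deposited raw counts per gene for 6 libraries (p53WT AML, 10 h). The count columns give arm and a number that matches no sample title, so each was assigned to its group. For all 3 comparisons the authors deposited a log2 fold change, a log2 mean CPM, a p-value and an FDR. Positive log2 fold changes mean higher with CX-5461, checked on the counts (Pearson r across genes 1.00) and taken over for the other 2 tables.

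With edgeR 4.0.16 (R 4.3.3), TMM factors and a two-sided quasi-likelihood F test were computed from the counts, for a model of treatment alone (4 residual degrees of freedom), Benjamini-Hochberg adjustment over 12679 genes and a threshold of 0.05. The fit was tested on simulated data. SE is the log2 fold change divided by the square root of F. CPM use TMM-scaled library sizes, and log2 CPM a prior count of 2. Counting error was not computed apart from the spread between libraries, and the number of libraries limits precision. The planned test for the other 2 tables is the authors' FDR. Symbols were matched for 12366 (p53null, 10 h), 12362 (p53WT, 72 h) and 12237 (p53WT, 10 h) IDs.

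Members and lists were chosen with earlier results of these data known. Named were, at 10 h in p53WT AML, the 5 small-subunit, 5 large-subunit and 4 snoRNP members with the smallest p, the 4 other nucleolar proteins and the 4 members with the largest p. In the other tables the rule took the 5 largest and 5 smallest log2 fold changes, and from the wider list the 4 smallest p per table. Further members were named after their values were seen. The result of 1 marker list is not reported here. Alternatives were RLE factors, library totals, DESeq2 1.42.0, limma-voom (limma 3.58.1), a minimum mean of 5 CPM, filterByExpr, a replicate block, an erythroid covariate, leaving out each library, an FDR of 0.01, a minimum log2 mean CPM of 5 and centring.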

Additional observations from a re-analysis of the deposited data

How the results depend on the processing

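In p53WT AML at 10 h, 0 members were called lower under every alternative, and counts of higher members stayed within 1.5 times with RLE factors (25), library totals (23), DESeq2 (35), limma-voom (21), a mean of at least 5 CPM (28) and filterByExpr (25, with all 12679 genes kept). Leaving out each library in turn gave 0 to 30 members called higher. By group these were 0 to 11 small-subunit, 0 to 10 large-subunit and 0 to 6 snoRNP members, with 0 to 46 genes of the wider list. Each 0 came from the fits without a CX-5461 library, where 23 or 24 genes were higher over all. The 30 and the 46 came without vehicle library 1, where 817 genes were higher, against 479 in the main fit. With the erythroid covariate 0 members, 0 small-subunit, 0 large-subunit and 0 snoRNP members and 0 wider genes were called. Over all genes that fit called 18 higher and 0 lower. Limma-voom called 3 snoRNP members, against 5, and DESeq2 called 49 wider genes, against 26. Over all genes DESeq2 called 962 higher and limma-voom 394, against 479 in the main fit. Of 308 values of the 22 members named by rule, 0 changed sign under alternatives; 233 kept their side of the threshold, 73 lost and 2 gained the call. Of the other members 1 changed sign in 1 setting, Dkc1 with the erythroid covariate (-0.03). With the column numbers as a replicate block 28 members were higher. Those numbers match no title, and same-numbered libraries deviated together with r = 0.301, 0.107 and 0.0274. Differently numbered libraries had r from -0.2025 to 0.0933. These few values do not settle whether the libraries were paired. At 72 h an FDR under 0.01 left 0 members higher (0 small-subunit, against 1, and 0 large-subunit, against 2) and 1 wider gene higher, against 5. The share of all genes at that threshold is not given here. In p53null AML every alternative gave 0 members. The depth of the 2 tables without counts is unknown.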

Other observations

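In the wider list of ribosome assembly genes at 10 h in p53WT AML, 11 of 35 small-subunit genes, 14 of 41 large-subunit genes and 1 of 8 snoRNP assembly genes rose in the edgeR quasi-likelihood test, with median log2 fold changes of 0.24, 0.28 and 0.31, and differences between these steps were not tested. Over all genes 3.78% were called higher. The authors' deposited table for the same libraries called 6, 7 and 0 of them higher, against 3.57% of all genes. In the authors' deposited table for p53WT AML at 72 h, small-subunit genes of this list had 3 higher and 6 lower, and large-subunit genes 2 higher and 2 lower, shares below the 31.2% of all genes called in either direction. All 8 snoRNP assembly genes were negative there, from -0.20 to -0.05, with 0 calls and 1 lower at an unadjusted p under 0.05 (authors' edgeR FDR).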
